A study of Danio rerio with 114 samples.

Results

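Ski7 is the adaptor that joins the cytoplasmic exosome to the SKI complex, and the genes described here are 6 subunits of the complexes on either side of it: exosc1 (ENSDARG00000059841), exosc2 (ENSDARG00000028688), exosc7 (ENSDARG00000100060) and exosc9 (ENSDARG00000006392) of the RNA exosome, and skiv2l (ENSDARG00000062206) and wdr61 (ENSDARG00000007755) of the SKI complex. They were picked by these Ensembl identifiers and are 6 of the 31466 genes counted in the zebrafish libraries of the series. All 6 were found in every count file. They passed the filter on low counts in every model that was fitted, with the exception of exosc1 in the eggs, which stayed under the minimum there and is given by its values alone.

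The exosome is a barrel of subunits that carries no catalytic activity of its own in animals and feeds RNA from its 3′ end to the nucleases bound to it. Exosc1 (Csl4) and Exosc2 (Rrp4) belong to the cap, which carries RNA-binding folds at the mouth of the channel, and Exosc7 (Rrp42) and Exosc9 (Rrp45) belong to the ring of RNase PH-like proteins underneath. Skiv2l (Ski2) is the helicase that unwinds RNA and threads it into the cytoplasmic exosome, and Wdr61 (Ski8) is a WD40-repeat protein of the same complex that in vertebrates is also found in the PAF1 complex of transcribing RNA polymerase II. In yeast, Ski7 binds the exosome through Csl4 and the SKI complex on its other side. In oocytes and early embryos, which are transcriptionally silent for part of their course, a transcript can change in abundance, in the length of its poly(A) tail, or in both, and RNA selected on poly(A) responds to either.

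Fish of the TLAB strain, either wild type (WT) or homozygous for a ski7 deletion allele (ski7-/-), were compared. The mutants carry 1 frameshifting deletion, made with CRISPR in the exon of hbs1l that is specific to the ski7 isoform, and no second allele was used. Oocytes were taken at stages I, II, III and IV-V (O1 to O4), eggs were inactive, activated or fertilized (UNA, ACT and FER), and embryos were at the 2-cell, 64-cell, 1000-cell and sphere stages (E1 to E4). Poly(A)-selected libraries (polyA) cover all 11 stages and rRNA-depleted libraries cover the oocytes and the embryos, with 3 replicates for each of the 38 combinations of genotype, stage and library type. Oocytes were sorted by size and opacity, the eggs of a replicate came from 1 female, and embryos were pooled, so the replicates are females or clutches as far as the study's methods tell.

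Depth was 2910639 to 145420525 reads on genes in the 66 polyA libraries (median 9182535) and 1439427 to 46600444 in the 48 rRNA-depleted libraries (median 4649868). Levels are given as read counts scaled to a common library size (counts per 1e6 reads, CPM) and by the trimmed mean of M values (TMM), with replicates 1, 2 and 3 always in that order. They are not divided by transcript length, so they can be compared between stages and genotypes of 1 gene but not between genes. The lowest count behind any value of skiv2l in the polyA eggs was 19 reads, and exosc1, the least sampled of the 6, went down to 25 reads in polyA and 11 reads in rRNA-depleted libraries. Oocyte markers were present at every stage. Markers of zygotic transcription summed to no more than 8.99 CPM before E4 and to 17.1 to 62.7 CPM in E4. Follicle cell markers summed to 43.1 to 125 CPM in O4 and to 0.275 to 0.607 CPM in UNA, and their part in changes between these 2 stages was not tested. Counts are of the whole hbs1l locus and do not separate ski7 from it, so they do not check the genotype labels.

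In WT, most of the 6 transcripts moved at the passage from the last oocytes to eggs, in opposite directions for the 2 ring subunits. Exosc2 and exosc7 moved further from FER to E1. In polyA libraries, exosc9 fell and exosc7 was higher in UNA than in O4, while skiv2l, exosc1 and wdr61 fell and exosc2 did not pass the test. Exosc9 then recovered in the embryo and exosc7 declined. With edgeR's quasi-likelihood test and Benjamini-Hochberg adjustment over all genes, 5 of the 6 were called between O4 and UNA, against a background of 78.5% of all genes tested, so that a call was the rule at this step. The median of all genes was −0.17 on the log2 scale after TMM scaling and −1.02 with library size alone, which sets the scale for the changes below.

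**Figure D1:**
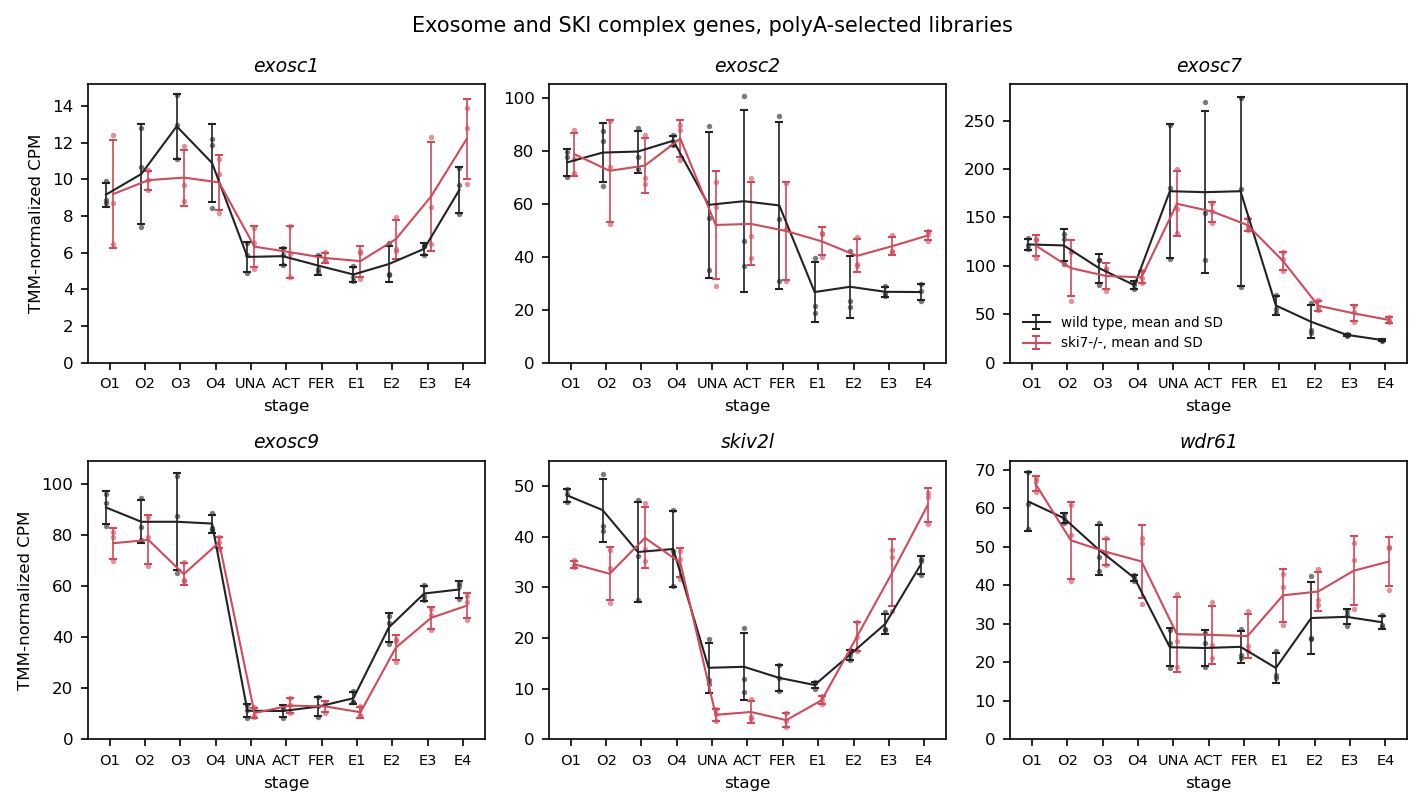
Level of each gene in the poly(A)-selected libraries (y axis: TMM-normalized CPM on a linear scale; x axis: the 11 stages from O1 to E4), with 1 point per library and lines and bars for the mean and SD of 3 replicates in WT and ski7-/-. Exosc9 and skiv2l are high in oocytes, lowest in eggs or E1 and high again by E4, exosc7 in WT is at 107 to 245 CPM in UNA and at 22.6 to 23.7 CPM in E4, and skiv2l in ski7-/- eggs lies under every WT egg library.

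Exosc9 was at 81.9, 82.7 and 88.4 CPM in WT O4 and at 8.32, 13.4 and 11.5 CPM in UNA. No library of the one stage came near those of the other. The drop was 7.56-fold (log2 −2.92 ± 0.20 SE, adjusted p = 1.7e-18). The level stayed low through activation and fertilization (8.75, 16.3 and 13.1 CPM in FER) and in 2-cell embryos (14.5, 18.8 and 14.7 CPM), and was 45.4, 37.4 and 48.1 CPM at the 64-cell stage. This step from E1 to E2 was called (log2 1.44 ± 0.19, adjusted p = 1.6e-08; 42.2% of all genes were called in this step in WT). By sphere stage the 3 libraries were at 55.0, 59.9 and 61.0 CPM.

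In the rRNA-depleted libraries the same gene hardly moved. WT libraries of exosc9 were at 70.8, 69.9 and 65.5 CPM in O4, at 54.9, 59.9 and 70.4 CPM in E1 and at 58.6, 64.6 and 69.9 CPM in E4, so that the groups overlapped. Neither O4 to E1 (log2 −0.15 ± 0.10, adjusted p = 0.23) nor E1 to E4 (0.06 ± 0.10, adjusted p = 0.97) was called, where 43.5% and 2.4% of all genes were. Over the 8 stages that both kinds of library cover, the highest WT stage mean exceeded the lowest by 1.16-fold in rRNA-depleted and by 5.67-fold in polyA libraries.

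Exosc7, also a subunit of the ring, took another course. WT O4 libraries held 83.6, 80.5 and 75.7 CPM and UNA libraries 107, 180 and 245 CPM in polyA. The eggs were all above the oocytes but spread widely among themselves. The order of replicates was kept in ACT (106, 154 and 269 CPM) and FER (78.0, 179 and 273 CPM). The eggs of a replicate came from 1 female. Replicate 3 was also the deepest of the WT eggs, with 47207230, 53906844 and 44430693 reads on genes in UNA, ACT and FER. What goes along with the kept order was not tested. The difference between UNA and O4 was log2 1.15 ± 0.28 (adjusted p = 0.0002), and with library size alone it was 0.27 and not called (adjusted p = 0.22). The fall from FER to E1 (51.1, 70.2 and 55.6 CPM) was called at log2 −1.58 ± 0.28 (adjusted p = 7.5e-06, background 45%). It went on to 23.7, 23.6 and 22.6 CPM in E4 (E1 to E4 −1.34 ± 0.28, adjusted p = 5.6e-05, background 56.7%).

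In rRNA-depleted RNA most of the decline of exosc7 was seen by the 2-cell stage. The libraries held 89.3, 89.1 and 81.0 CPM in O4 and 27.5, 32.9 and 28.8 CPM in E1, a fall of 2.90-fold (log2 −1.54 ± 0.15, adjusted p = 3.9e-10), and 21.4, 26.3 and 32.7 CPM in E4. The step from E1 to E4 was not called with edgeR (−0.14 ± 0.16, adjusted p = 0.93, background 2.4%), and the lowest stage mean was in E3 (25.5 CPM). The 2-cell stage was therefore the one at which both kinds of library differed most: exosc7 had already fallen in rRNA-depleted RNA while it was between oocyte and sphere levels in polyA RNA.

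Of the cap subunits, exosc2 was steady through oogenesis and lower in embryos. Its WT polyA libraries were at 79.6, 70.1 and 77.8 CPM in O1 and at 86.0, 82.3 and 83.7 CPM in O4. Eggs ranged from 30.7 to 101 CPM, with replicate 1 lowest and replicate 3 highest at each egg stage, and the UNA libraries straddled the O4 ones (log2 −0.49, adjusted p = 0.16). Exosc2 fell from FER to E1 (21.5, 39.5 and 18.9 CPM) by 1.16 on the log2 scale (SE 0.33, adjusted p = 0.0035). That call rested on replicate 3 of the WT set and on the scaling, being −0.49 (adjusted p = 0.29) without that replicate and −0.65 (adjusted p = 0.053) with library size alone. From E1 to E4 there was no detectable change (−0.01 ± 0.33). In rRNA-depleted libraries exosc2 went from 57.3, 73.3 and 70.8 CPM in O4 to 54.6, 45.8 and 52.5 CPM in E1 (log2 −0.40 ± 0.10, adjusted p = 0.0011). Without WT replicate 2 this was −0.27 (adjusted p = 0.065), and with library size alone −0.21 (adjusted p = 0.078).

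Exosc1 was the sparsest of the 6. Its polyA libraries held 11.9, 8.43 and 12.2 CPM in O4 and 5.86, 4.89 and 6.55 CPM in UNA, without overlap (log2 −0.91 ± 0.24, adjusted p = 0.00054). The level in E1 (4.68, 5.29 and 4.47 CPM) was like that in FER (5.89, 5.10 and 4.92 CPM), and E4 had risen to 10.6, 9.67 and 8.09 CPM (E1 to E4 log2 0.97 ± 0.24, adjusted p = 0.00049). In rRNA-depleted RNA exosc1 was higher in the smallest oocytes (15.6, 19.6 and 21.2 CPM in O1) than in O4 (8.47, 10.2 and 11.9 CPM), the only one of the 6 that was called across oogenesis in WT (log2 −0.86 ± 0.27, adjusted p = 0.012, against 35.1% of all genes). It was −0.87 with adjusted p = 0.055 without WT replicate 1.

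The SKI complex helicase skiv2l followed a course like that of exosc9 in polyA RNA. WT libraries held 45.3, 37.2 and 30.3 CPM in O4, and the eggs were lower, at 11.6, 19.8 and 10.9 CPM in UNA (log2 −1.41 ± 0.25, adjusted p = 1.9e-06). The lowest WT stage mean was in E1 (9.96, 11.2 and 11 CPM). It then rose at E2 (17.7, 16.7 and 15.7 CPM, log2 0.64 ± 0.25, adjusted p = 0.036) and reached 35.7, 32.5 and 35.3 CPM in E4 (E1 to E4 1.68 ± 0.25, adjusted p = 1.6e-07). In rRNA-depleted RNA, again, no such course was seen: 69.3, 75.0 and 71.1 CPM in O4, 58.8, 60.9 and 73.2 CPM in E1 and 65.6, 74.6 and 70.6 CPM in E4, with neither step called (−0.16 ± 0.10, adjusted p = 0.20, and 0.13 ± 0.10, adjusted p = 0.80).

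Wdr61, the WD40 subunit, moved less. In polyA libraries it was at 69.6, 54.6 and 61.2 CPM in O1, at 41.9, 42.8 and 41.0 CPM in O4 and at 18.5, 28.4 and 24.9 CPM in UNA. The first of these steps did not pass the test (log2 −0.56 ± 0.22, adjusted p = 0.064, background 18.3%) and the second did (−0.80 ± 0.22, adjusted p = 0.00092). Levels in E1 were 16.0, 23.0 and 16.7 CPM, rising at E2 to 26.0, 42.3 and 26.2 CPM (0.76 ± 0.22, adjusted p = 0.0040), while E4 was at 32.3, 29.2 and 29.8 CPM. In rRNA-depleted RNA, wdr61 was at 53.5, 52.8 and 55.6 CPM in O4 and at 39.8, 45.0 and 37.9 CPM in E1 (−0.40 ± 0.15, adjusted p = 0.027). This smaller call was lost without WT replicate 1 (−0.39, adjusted p = 0.13) or replicate 3 (−0.31, adjusted p = 0.24), with library size alone (−0.22, adjusted p = 0.23) and with no filter (−0.37, adjusted p = 0.10).

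**Figure D2:**
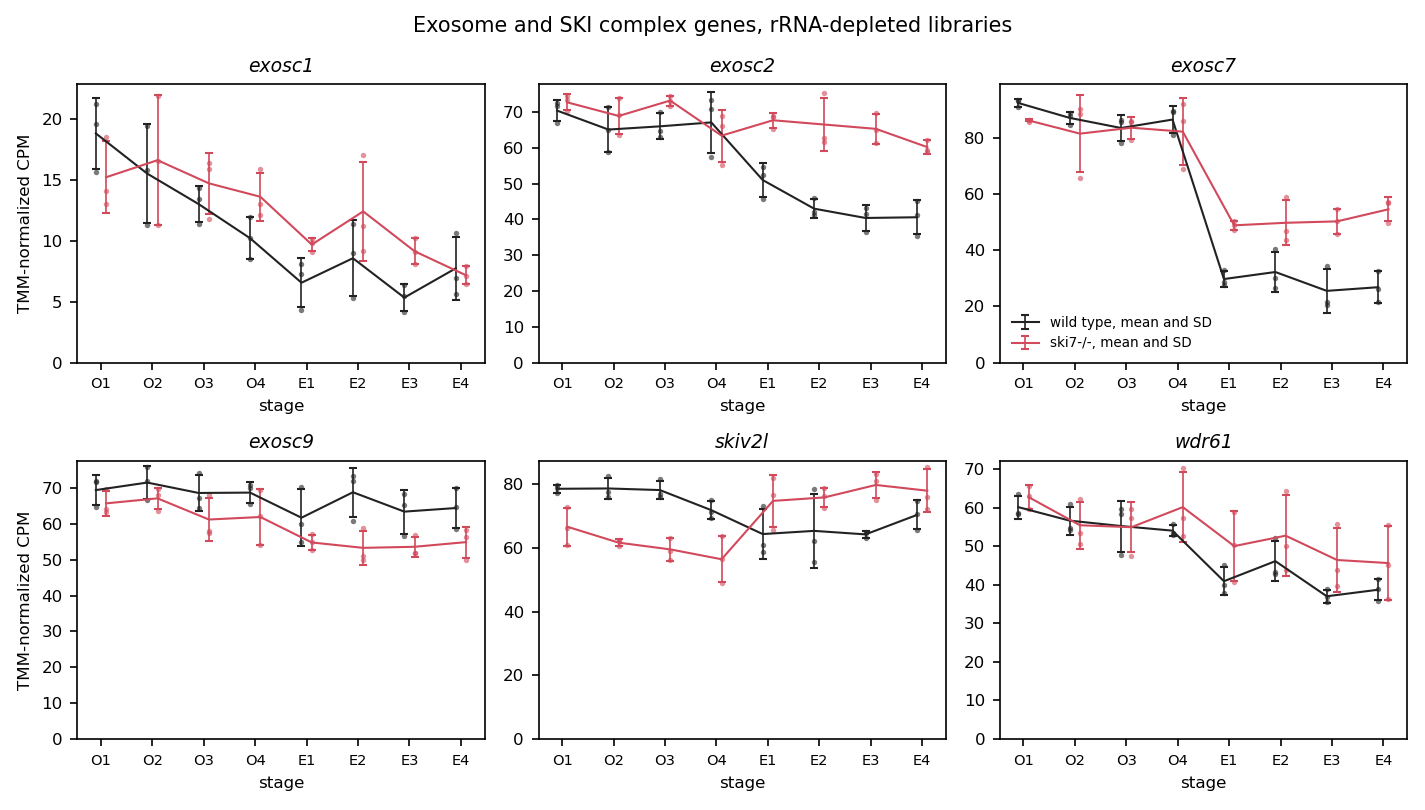
Level of each gene in the rRNA-depleted libraries (y axis: TMM-normalized CPM on a linear scale; x axis: oocyte stages O1 to O4 and embryo stages E1 to E4), with 1 point per library and lines and bars for the mean and SD of 3 replicates in WT and ski7-/-. In WT, exosc9 and skiv2l are nearly level, and exosc7 drops from 81.0 to 89.3 CPM in O4 to 27.5 to 32.9 CPM in E1. Skiv2l in ski7-/- has its lowest stage mean in O4 (56.4 CPM) and its highest in E3 (79.7 CPM). The embryo libraries of ski7-/- lie above all those of WT for exosc2 and exosc7, where 5.32% of all genes tested had no overlap between the genotypes.

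The order of WT polyA stage means therefore differed among the 6. It ran from O1 down to ACT for exosc9 (90.7 to 11 CPM), from O1 to E1 for skiv2l (48.2 to 10.7 CPM) and wdr61 (61.8 to 18.5 CPM), from O3 to E1 for exosc1 (12.9 to 4.81 CPM), from O4 to E4 for exosc2 (84.0 to 26.7 CPM) and from UNA to E4 for exosc7 (177 to 23.3 CPM). Between neighbouring stages within oogenesis, within the eggs and after E2 no step was called. Of 42 tests of adjacent WT stages there, edgeR called 0, as did DESeq2, at log2 differences of −0.55 to 0.6. The unadjusted p was under 0.05 in 4 of them, and 1.09% of all genes were called. A step without a call is not thereby shown to be absent. The 36 tests of adjacent WT stages in rRNA-depleted libraries likewise gave 0 calls with either tool and 4 at an unadjusted p under 0.05 (background 1.88%). The fit did not pair stages of a replicate set. Blocking on the replicate set ended none of the calls between stages, and calls it may add among the steps without one are not given.

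The 2 kinds of library were next set side by side, in 1 model of the stages they share, to compare what poly(A) selection captured with what rRNA depletion left. In WT O4, exosc2 (log2 0.72 ± 0.17) and exosc9 (0.70 ± 0.12) were higher in polyA libraries and skiv2l was lower (−0.54 ± 0.13), 3 calls of 6 against 52.3% of all genes. In E1, exosc7 was 2.91-fold higher in polyA libraries (1.54 ± 0.19, adjusted p = 3.6e-11), and exosc9 (−1.39 ± 0.13, adjusted p = 4.3e-16), skiv2l (−2.03 ± 0.14, adjusted p = 1.1e-21) and wdr61 (−0.58 ± 0.17, adjusted p = 0.0022) were lower (background 68.2%). The transcripts were thus on both sides of parity in the same libraries.

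The change in this difference from O4 to E1 was called for 5 of the 6 in WT (background 61.0%, median of all genes 0.19). Exosc9 shifted by −2.08 ± 0.17 (adjusted p = 3e-17), skiv2l by −1.49 ± 0.19 (adjusted p = 1.6e-10), exosc2 by −1.09 ± 0.24 (adjusted p = 7.9e-05) and exosc7 by +1.25 ± 0.26 (adjusted p = 2.1e-05). Wdr61 shifted by −0.61 ± 0.24 (adjusted p = 0.025), which was −0.58 (adjusted p = 0.12) without WT replicate 1 and −0.66 (adjusted p = 0.075) without replicate 3. Exosc1 did not pass the test (−0.36 ± 0.37, adjusted p = 0.42). Library size alone moves the median of all genes in this contrast by −0.63, and none of the signs given here turned with it.

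By sphere stage most of the gap had closed. From E1 to E4 the difference between library types rose for exosc9 (1.63 ± 0.17, adjusted p = 9.1e-13), skiv2l (1.38 ± 0.19, adjusted p = 2.6e-09) and wdr61 (0.61 ± 0.24, adjusted p = 0.029; without WT replicate 1 0.61, adjusted p = 0.12, and without WT replicate 3 0.67, adjusted p = 0.086) and fell for exosc7 (−1.37 ± 0.27, adjusted p = 1.1e-05), against 51.3% of all genes. In WT E4, skiv2l was the only one of the 6 still called, at −0.65 ± 0.13 (adjusted p = 5.2e-05; background 28.4%). For skiv2l the difference in WT was −2.03 at E1, −1.55 at E2, −1.11 at E3 and −0.65 at E4.

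**Figure D3:**
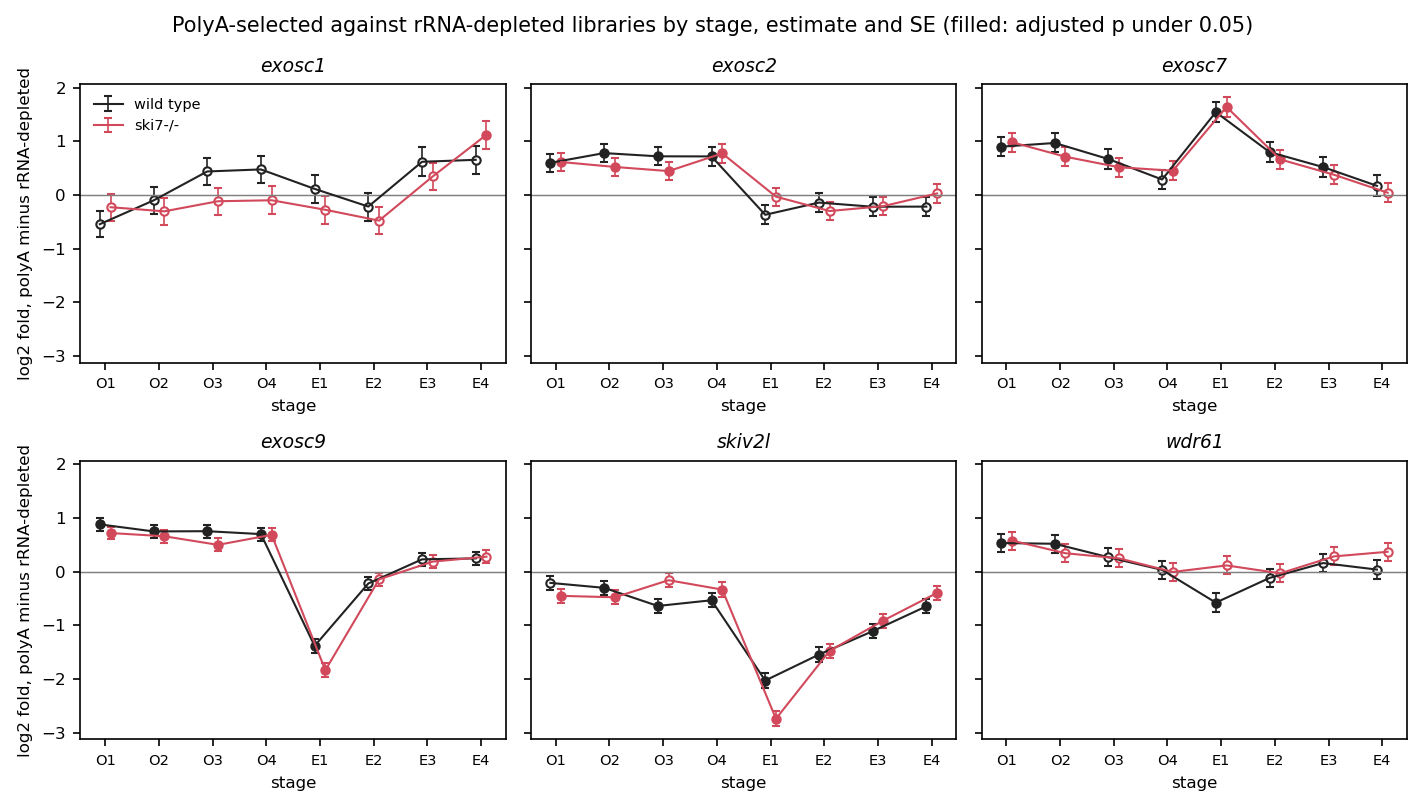
Difference between poly(A)-selected and rRNA-depleted libraries for each gene (y axis: log2 difference with its SE; x axis: stages O1 to O4 and E1 to E4; separate points for WT and ski7-/-, 3 replicates of each library type; filled points passed an adjusted p of 0.05). At E1, exosc7 is at +1.54 in WT and +1.64 in ski7-/-, skiv2l at −2.03 and −2.74, and exosc9 at −1.39 and −1.84, and by E4 skiv2l in WT is at −0.65.

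The comparison of ski7-/- with WT asks whether loss of the adaptor goes along with other levels of the transcripts for its partners. Embryos gave the clearest differences. Exosc2 and exosc7 were higher in ski7-/- embryos in both kinds of library, exosc9 was lower, and wdr61 was higher in polyA embryos. Over single stages, 10 of 24 tests were called in polyA embryos (8 higher and 2 lower, beside 8.96% and 9.38% of all tests over these stages; background 28.2% at E1, 15.4% at E2, 14.8% at E3 and 15% at E4) and 9 of 24 in rRNA-depleted embryos (8 higher and 1 lower, beside 5.99% and 6.34%; background 11.6%, 10.9%, 14.6% and 12.1%). Over the mean of the 4 stages all 6 were called in either library type, where 53% of all genes were in polyA and 47.3% in rRNA-depleted libraries. With the correlation between stages of a replicate number estimated, 4 of these calls were left in polyA, without exosc1 (adjusted p = 0.18) and skiv2l (adjusted p = 0.19), and 3 in rRNA-depleted libraries, without exosc1 (adjusted p = 0.22), skiv2l (adjusted p = 0.13) and wdr61 (adjusted p = 0.14). At single stages the libraries of the genotypes did not overlap in 15 of 24 cases in polyA (background 35.8%, 26.9%, 36.2% and 36.4%) and in 14 of 24 in rRNA-depleted embryos (background 32.1%, 26.6%, 34% and 29.5%). The values with an estimated correlation stand beside the period means below.

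Exosc7 had the largest mean difference of the 6 in embryos. In rRNA-depleted libraries, the 12 WT embryo libraries lay between 20.5 and 40.3 CPM (median 28.1) and the 12 ski7-/- libraries between 43.5 and 58.7 CPM (median 49.9), without overlap. At E4, for example, WT libraries were at 21.4, 26.3 and 32.7 CPM and ski7-/- libraries at 57.0, 49.5 and 56.9 CPM. The mean difference was log2 0.81 (adjusted p = 1.4e-06, and 0.00032 with an estimated correlation). In polyA libraries the E1 values were 51.1, 70.2 and 55.6 CPM in WT and 95, 114 and 107 CPM in ski7-/- (0.86 ± 0.18, adjusted p = 0.0016), and the E4 values 23.7, 23.6 and 22.6 CPM against 41.8, 43.2 and 46.9 CPM (0.86, adjusted p = 0.0033). The ring subunit was thus about as much higher at the end of the series of stages as at the start.

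The single-stage calls of exosc7 held in polyA E1, E3 and E4 and in rRNA-depleted E3 and E4 without any 1 replicate. A replicate was left out at all stages of the fit. The call in rRNA-depleted E1 (0.71, adjusted p = 0.020) was lost without WT replicate 3 or any 1 of the ski7-/- replicates (0.68 to 0.73, adjusted p = 0.061 to 0.069). That in rRNA-depleted E2 (0.60, adjusted p = 0.049) was lost without any 1 replicate other than WT replicate 2 (0.46 to 0.69, adjusted p = 0.087 to 0.22), and with a filter at 1 CPM (adjusted p = 0.060), no filter (adjusted p = 0.092) or a fit per stage (adjusted p = 0.18). In polyA E2 the difference was 0.52 (adjusted p = 0.056), where edgeR called 0 of the 6, with 3 at an unadjusted p under 0.05, and DESeq2 called exosc7 alone.

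Exosc2, of the cap, likewise separated all libraries in rRNA-depleted embryos, with 35.5 to 54.6 CPM (median 42.7) in WT and 58.9 to 75.2 CPM (median 63.8) in ski7-/-. Of all genes tested, 5.32% had 12 WT and 12 ski7-/- libraries that did not overlap. The mean difference was log2 0.56 (adjusted p = 5.5e-08, and 9.5e-05 with an estimated correlation), and it was called at each of E1 (0.40), E2 (0.62), E3 (0.68) and E4 (0.56). The E1 call was lost without WT replicate 2 (0.33, adjusted p = 0.071) or ski7-/- replicate 2 (0.40, adjusted p = 0.070), with no filter (adjusted p = 0.076) and with a fit per stage (adjusted p = 0.065), which also ended the E2 call (adjusted p = 0.079). In polyA embryos the mean difference was 0.70 (adjusted p = 4.1e-05, and 0.0070 with an estimated correlation). WT replicate 2 stood apart from its group at E1 (39.5 CPM beside 21.5 and 18.9 CPM) and E2 (42.2 CPM beside 20.9 and 23.2 CPM) and lay within the range of ski7-/- (36.4 to 49.8 CPM over all 4 stages).

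The polyA calls of exosc2 at single stages were less firm. At E1 (0.81 ± 0.23, adjusted p = 0.012) the call was lost without WT replicate 1 or 3 or ski7-/- replicate 1 or 3 (0.65 to 0.76, adjusted p = 0.051 to 0.082) and with a fit per stage (adjusted p = 0.067). At E3 (0.68, adjusted p = 0.048) it was lost without any 1 replicate other than WT replicate 2 (0.61 to 0.76, adjusted p = 0.088 to 0.16), with a filter at 1 CPM (adjusted p = 0.059) and with no filter (adjusted p = 0.084). At E4 (0.79, adjusted p = 0.023) it was lost without WT replicate 1 or any 1 ski7-/- replicate (0.73 to 0.85, adjusted p = 0.057 to 0.084), although the values themselves, 23.5, 27.1 and 29.6 CPM in WT and 49.8, 46.1 and 48.5 CPM in ski7-/-, did not overlap.

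Exosc9 went the other way. In polyA E1 it was at 14.5, 18.8 and 14.7 CPM in WT and at 9.40, 13.0 and 9.06 CPM in ski7-/-, all mutant libraries being below all WT libraries (log2 −0.58 ± 0.14, adjusted p = 0.0039). A fit per stage ended this call (−0.53, adjusted p = 0.11). Over the embryo stages the mean difference was −0.34 in polyA (adjusted p = 0.00027, and 0.030 with an estimated correlation) and −0.26 in rRNA-depleted libraries (adjusted p = 0.00071, and 0.049 with an estimated correlation). The rRNA-depleted E2 libraries held 73.4, 60.9 and 72.0 CPM in WT and 50.0, 51.0 and 58.7 CPM in ski7-/- (−0.37, adjusted p = 0.037). That call was lost without WT replicate 1 or 3 or ski7-/- replicate 1 or 2 (−0.34 to −0.33, adjusted p = 0.073 to 0.17), and with a filter at 1 CPM (adjusted p = 0.051), no filter (adjusted p = 0.11) or a fit per stage (adjusted p = 0.21). The ring subunits exosc7 and exosc9 therefore differed from WT in opposite directions in the same embryos.

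Wdr61 was 43.0, 39.5 and 29.6 CPM in ski7-/- E1 polyA libraries against 16.0, 23.0 and 16.7 CPM in WT, the largest single-stage difference of the 6 in embryos (log2 1.03 ± 0.19, adjusted p = 0.0005). At E4 the groups again did not overlap (49.8, 50.1 and 38.7 CPM against 32.3, 29.2 and 29.8 CPM) but the difference of 0.55 did not pass the test (adjusted p = 0.050). The mean over polyA embryos was 0.58 (adjusted p = 3.5e-05, and 0.0018 with an estimated correlation). In rRNA-depleted embryos the mean was 0.25, and its adjusted p of 0.024 was 0.14 with an estimated correlation. It fell to 0.10 (adjusted p = 0.29) without ski7-/- replicate 2 and was also lost without WT replicate 1 (0.23, adjusted p = 0.092), WT replicate 3 (0.21, adjusted p = 0.12) or ski7-/- replicate 1 (0.27, adjusted p = 0.053).

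Skiv2l changed side during embryogenesis in polyA libraries. At E1 the mutant libraries were lower (7.66, 8.45 and 6.98 CPM against 9.96, 11.2 and 11 CPM; log2 −0.46 ± 0.13, adjusted p = 0.016). At E3 they were higher (25.4, 37.5 and 36.1 CPM against 21.7, 21.5 and 25.1 CPM; 0.50, adjusted p = 0.012), and at E4 they were at 42.5, 48.6 and 47.8 CPM against 35.7, 32.5 and 35.3 CPM (0.37, adjusted p = 0.053). The groups did not overlap at any of these stages. In rRNA-depleted E1 libraries they overlapped, and the difference was 0.21 ± 0.12 (adjusted p = 0.28). The E1 call was lost without WT replicate 3 (−0.41, adjusted p = 0.075) or ski7-/- replicate 3 (−0.40, adjusted p = 0.071) and with library size alone (−0.34, adjusted p = 0.064). The E3 call was lost without WT replicate 1 or 2 or ski7-/- replicate 2 or 3 (0.43 to 0.47, adjusted p = 0.055 to 0.065), with no filter (adjusted p = 0.061) and with a fit per stage (adjusted p = 0.073). The change from E1 to E4 differed by 0.90 ± 0.35 between the genotypes and was not called (unadjusted p = 0.014, adjusted p = 0.98).

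The means over embryo stages of skiv2l, 0.18 in polyA (adjusted p = 0.023) and 0.21 in rRNA-depleted libraries (adjusted p = 0.0073), had adjusted p = 0.19 and 0.13 with an estimated correlation. Exosc1 was also higher on average, by 0.35 (adjusted p = 0.018) and 0.43 (adjusted p = 0.037), with adjusted p = 0.18 and 0.22 with an estimated correlation. Leaving out single replicates ended these 4 calls as well. For exosc1 the values were 0.24 to 0.31 in polyA (without WT replicate 3 or ski7-/- replicate 1) and 0.34 to 0.48 in rRNA-depleted RNA (without WT replicate 1 or 2 or ski7-/- replicate 2 or 3). For skiv2l they were 0.13 to 0.18 (without WT replicate 1 or 2 or ski7-/- replicate 2 or 3) and 0.15 to 0.17 (without WT replicate 1 or ski7-/- replicate 3). The polyA mean of skiv2l was 0.16 (adjusted p = 0.056) with a filter at 1 CPM. Exosc1 is near the filter in embryos, where 3 of 12 WT and 6 of 12 ski7-/- polyA libraries and 2 of 12 and 5 of 12 rRNA-depleted ones reached 10 CPM before TMM scaling. With a filter at 1 CPM its 2 means were 0.33 (adjusted p = 0.025) and 0.44 (adjusted p = 0.037).

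**Figure D4:**
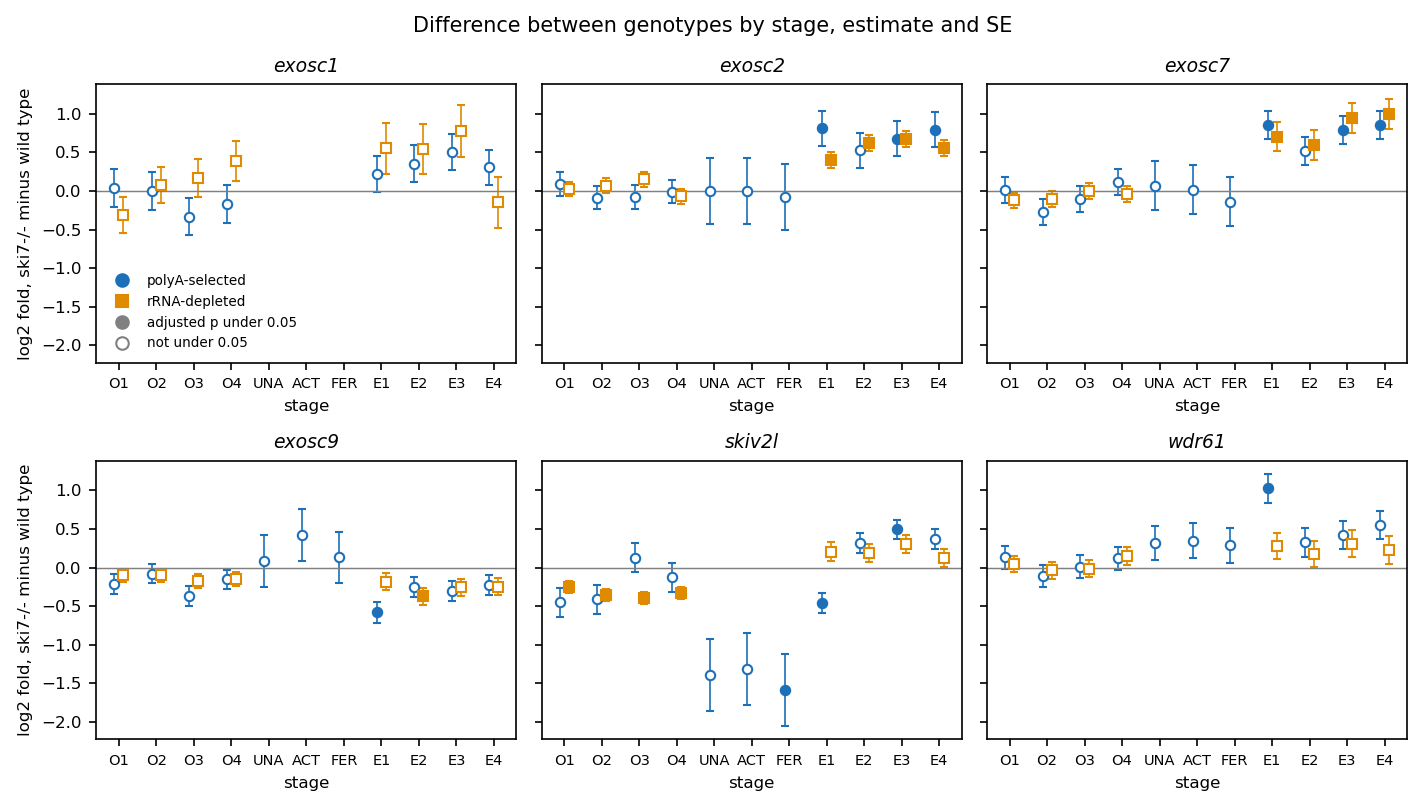
Difference between ski7-/- and WT for each gene and stage (y axis: log2 difference, positive where ski7-/- is higher, with its SE; x axis: stages; separate points for poly(A)-selected and rRNA-depleted libraries, 3 replicates per genotype; filled points passed an adjusted p of 0.05). Exosc2 and exosc7 lie above 0 at each embryo stage, exosc9 lies below 0 in E1, and skiv2l lies below 0 in eggs (−1.59 in FER) and in rRNA-depleted oocytes.

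In eggs, 1 of 15 tests at single stages was called (background 18.4% in UNA, 15.1% in ACT and 19.8% in FER), and it was skiv2l. Eggs have polyA libraries only, so a change in abundance and a change in the poly(A) tail cannot be told apart there. The helicase transcript was at 12.0, 14.7 and 9.53 CPM in WT FER and at 2.38, 5.18 and 3.65 CPM in ski7-/- FER (log2 −1.59 ± 0.47, adjusted p = 0.030). UNA libraries were at 11.6, 19.8 and 10.9 CPM against 3.49, 5.95 and 4.97 CPM (−1.40 ± 0.47), and ACT libraries at 11.9, 21.9 and 9.29 CPM against 4.33, 7.84 and 3.91 CPM (−1.31), both short of the threshold. Over all egg libraries, WT ranged from 9.29 to 21.9 CPM and ski7-/- from 2.38 to 7.84 CPM without overlap, as for 11% of all genes tested. The mean over the eggs was −1.43 ± 0.27 (adjusted p = 0.00056, and 0.0087 with an estimated correlation), where 52.3% of genes were called. It held without any 1 replicate whose removal left the gene above the filter. Skiv2l entered this test through WT alone: 3 of 9 WT and 0 of 9 ski7-/- egg libraries reached the 10 CPM of the filter before TMM scaling. A gene that passes through 1 genotype only is favoured to differ, so the test was repeated with a lower minimum. With a filter at 1 CPM, which every egg library of either genotype exceeded for this gene, the mean was −1.51 (adjusted p = 0.00027). Without WT replicate 2, which was the highest of the WT eggs at each stage, skiv2l fell under the 10 CPM filter and could not be tested.

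The FER call was lost without WT replicate 1 (−1.53, adjusted p = 0.063), ski7-/- replicate 1 (−1.36, adjusted p = 0.12) or ski7-/- replicate 3 (−1.57, adjusted p = 0.10) and with library size alone (−1.37, adjusted p = 0.060), and kept with a filter at 1 CPM (−1.68, adjusted p = 0.021). Wdr61 averaged 0.32 higher in ski7-/- eggs and did not pass the test (adjusted p = 0.052). It did with library size alone (0.54, adjusted p = 0.0029). The exosome subunits exosc2, exosc7 and exosc9 overlapped between the genotypes at every egg stage. Exosc1 eggs ranged from 4.89 to 6.55 CPM in WT and from 4.66 to 7.48 CPM in ski7-/-.

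In oocytes the differences were small. In polyA libraries 0 of 24 single-stage tests were called with edgeR, 3 had an unadjusted p under 0.05, and DESeq2 called exosc9 in O3 (background 8.13%, 11.7%, 7.71% and 6.44% from O1 to O4). In rRNA-depleted libraries 4 of 24 were called, and all were skiv2l, lower in ski7-/- at each oocyte stage (background 16.3%, 13.1%, 10.9% and 11.5%, of which lower 8.91%, 6.96%, 5.97% and 6.07%). Values in O3 were 75.9, 81.5 and 77.0 CPM in WT and 56.2, 63.2 and 59.1 CPM in ski7-/- (log2 −0.40, adjusted p = 0.0022), and in O2 82.4, 77.5 and 75.8 CPM against 60.5, 62.3 and 62.1 CPM (−0.36, adjusted p = 0.0034). The groups did not overlap at any oocyte stage (background 36.2%, 33.6%, 27.3% and 23.9%). The mean was −0.33 ± 0.04 (adjusted p = 1.2e-06, and 0.0021 with an estimated correlation; background 44.9%).

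The skiv2l calls in O2 and O3 held without any 1 replicate, but with a fit per stage that in O3 missed the threshold (adjusted p = 0.052). The call in O1 (−0.25, adjusted p = 0.028) was lost without any 1 WT replicate or without ski7-/- replicate 1 (−0.26 to −0.19, adjusted p = 0.080 to 0.11), and that in O4 (−0.33, adjusted p = 0.013) without WT replicate 2 or 3 or ski7-/- replicate 2 or 3 (−0.33 to −0.25, adjusted p = 0.055 to 0.090). A fit per stage ended both (adjusted p = 0.095 and 0.21), as did no filter that in O1 (adjusted p = 0.13). In polyA oocytes skiv2l was at 49.4, 48.4 and 46.8 CPM in WT O1 and at 34.4, 34.1 and 35.4 CPM in ski7-/- O1, yet the groups overlapped in O3 and O4 and the mean difference of −0.22 did not pass the test (adjusted p = 0.073). Exosc9 averaged −0.20 in polyA (adjusted p = 0.016, background 38.3%) and −0.13 in rRNA-depleted oocytes (adjusted p = 0.024), with adjusted p = 0.13 and 0.21 with an estimated correlation. The polyA call was lost without ski7-/- replicate 3 (−0.20, adjusted p = 0.065) and the other without WT replicate 1, WT replicate 2 or ski7-/- replicate 3 (−0.12 to −0.09, adjusted p = 0.088 to 0.17).

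Whether the passage from oocyte to egg or embryo itself differed between the genotypes was tested with an interaction term. Between O4 and UNA in polyA libraries, skiv2l fell by 1.41 in WT and by 2.83 in ski7-/- on the log2 scale, a difference of −1.42 ± 0.36 (adjusted p = 0.0071, background 10.1%). Without WT replicate 2 it was −1.05 (adjusted p = 0.072), and with library size alone −1.03 (adjusted p = 0.062). No other of the 6 was called there, including exosc9, whose falls of 2.92 and 2.93 differed by −0.01 ± 0.26.

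Between O4 and E1 in rRNA-depleted libraries 3 of the 6 were called (background 7.92%). Exosc7 fell by 1.54 in WT and by 0.76 in ski7-/-, a difference of 0.78 ± 0.21 (adjusted p = 0.020). Exosc2 fell by 0.40 in WT and was at 0.09 ± 0.10 in ski7-/- (difference 0.49 ± 0.14, adjusted p = 0.025). Skiv2l was at −0.16 in WT and rose by 0.40 ± 0.10 in ski7-/- (background 43%; difference 0.56 ± 0.14, adjusted p = 0.010). These interactions depended on single replicates, each left out at all stages of both periods. Exosc7 was lost without WT replicate 1 or 3 or ski7-/- replicate 1 or 2 (0.67 to 0.82, adjusted p = 0.059 to 0.11), exosc2 without WT replicate 2 or 3 or ski7-/- replicate 2 or 3 (0.36 to 0.50, adjusted p = 0.060 to 0.16) or with no filter (0.52, adjusted p = 0.069), and skiv2l without ski7-/- replicate 2 or 3 (0.47 to 0.48, adjusted p = 0.080 to 0.096).

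In polyA libraries the same passage gave 0 of 6 calls with edgeR, with 1 at an unadjusted p under 0.05, and DESeq2 called wdr61 (edgeR difference 0.86 ± 0.31, adjusted p = 0.096; background 4.76%). From FER to E1, 5 of the 6 had an unadjusted p under 0.05 and 0 were called by edgeR (background 2.52%), while DESeq2 called exosc7, skiv2l and wdr61. Skiv2l in ski7-/- rose over that step (log2 1.06 ± 0.27, adjusted p = 0.0017, background 32.6%; 0.80, adjusted p = 0.074, without ski7-/- replicate 1) and was at −0.15 ± 0.25 in WT. Of the differences between library types, 1 depended on genotype at E1: skiv2l was further below parity in ski7-/- than in WT, by −0.71 ± 0.19 (adjusted p = 0.025, background 2.58%). It was lost without WT replicate 1 or 2 or ski7-/- replicate 2 or 3 (−0.78 to −0.59, adjusted p = 0.055 to 0.23), with library size alone (−0.55, adjusted p = 0.10), with no filter (−0.73, adjusted p = 0.14) and with DESeq2 (adjusted p = 0.051).

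Of the 5 other core exosome subunits, exosc4 and exosc8 could be followed across the stages, although exosc4 was under the filter in the comparison of genotypes in eggs. Exosc8, a ring subunit, sided with exosc7 in WT: it was at 72.5, 63.6 and 55.1 CPM in WT O4, at 80.1, 103 and 149 CPM in UNA (log2 0.80 ± 0.24, adjusted p = 0.0029) and at 31.5, 28.9 and 26.8 CPM in E4. In ski7-/- the step from O4 to UNA was 0.39 ± 0.24 (adjusted p = 0.14) and not called. Library size alone moved the median of all genes in the WT step by −0.86. Exosc4, also of the ring, sided with exosc9: 77.9, 57.9 and 62.5 CPM in WT O4, 9.41, 8.09 and 2.09 CPM in UNA (−3.38 ± 0.47, adjusted p = 8.2e-09), and 26.9, 29.0 and 33.2 CPM in E4. In rRNA-depleted RNA exosc4 was at 100, 73.3 and 98.2 CPM in O4 and at 120, 114 and 91.1 CPM in E1 (0.25 ± 0.12, adjusted p = 0.088). Ring subunits were thus found on either side. In ski7-/- embryos exosc4 was lower (−0.38 ± 0.05 in rRNA-depleted libraries, adjusted p = 1.4e-05), and exosc8 was not called (−0.02 ± 0.07 in polyA and 0.05 ± 0.09 in rRNA-depleted libraries, adjusted p = 0.84 and 0.65). The cap subunit exosc3 went from 14.6, 11.3 and 9.39 CPM in O4 to 0.273, 0.457 and 0.355 CPM in UNA, exosc5 was under the filter, and exosc6 was listed at 0 in all libraries. On the period means in ski7-/-, exosc8 was lower in polyA oocytes (−0.25 ± 0.07, adjusted p = 0.011) and eggs (−0.45 ± 0.15, adjusted p = 0.023), exosc4 was lower also in polyA embryos (−0.35 ± 0.14, adjusted p = 0.042) and exosc3 was higher in polyA oocytes. Period means of these subunits, and of the other related genes below, are given without an estimated correlation between stages of a replicate number. Among the genes followed in the figures, that correlation ended 7 of 16 calls on period means, so calls on related genes may not hold.

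The SKI complex scaffold ttc37 shared the trough of skiv2l in WT eggs, going from 63.6, 70.2 and 64.9 CPM in O4 to 3.14, 6.65 and 6.47 CPM in UNA (log2 −3.58 ± 0.30, adjusted p = 4.4e-15). In ski7-/- oocytes ttc37 was lower than in WT, at log2 −0.23 ± 0.06 in polyA (adjusted p = 0.0056) and −0.11 ± 0.04 in rRNA-depleted libraries (adjusted p = 0.022). In eggs it was higher than in WT. In ski7-/- UNA it was at 8.09, 9.74 and 15.1 CPM, and its mean over the eggs was 1.03 ± 0.24 higher (adjusted p = 0.0024), whereas skiv2l was lower. All 3 WT UNA libraries of ttc37 were under the 10 CPM of the filter. A gene that passes mainly through 1 genotype is favoured to differ, and the egg value of ttc37 is given with this filter alone. In rRNA-depleted embryos ttc37 was lower in ski7-/- (−0.53 ± 0.15, adjusted p = 0.0055), with a wide spread between mutant replicates (54.1, 89.8 and 121 CPM in E1). The hbs1l locus, which carries ski7, was lower in ski7-/- oocytes (−0.54 ± 0.12 in polyA, adjusted p = 0.0012, and −0.43 ± 0.07 in rRNA-depleted libraries, adjusted p = 6e-05) and was not called in eggs (0.22 ± 0.30) or embryos (0.12 ± 0.11 and 0.24 ± 0.13). The deletion of the mutants lies in an exon of this locus, and its part in the lower counts was not tested. For the hbs1l isoform alone, the paper reports no difference between the genotypes. Pelo, the partner of Hbs1l in ribosome rescue, was called in 0 of the 4 period means in which it was tested with edgeR (log2 −0.19 to 0.07, adjusted p = 0.053 to 0.91).

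Among nucleases and nuclear cofactors of the exosome, 9 of 10 were tested in each period, again without an estimated correlation. In polyA libraries 6 rose and 0 fell in ski7-/- oocytes, 5 rose and 2 fell in eggs, and 3 rose and 2 fell in embryos, on the period means, where 20.9% of all genes were higher and 17.4% lower in oocytes, 27.3% and 25% in eggs and 25.8% and 27.2% in embryos. In rRNA-depleted libraries 3 rose and 1 fell in oocytes (21.2% and 23.7% of all genes), and 2 rose and 2 fell in embryos (23.6% and 23.6%). The list medians, in the same order, were log2 0.50, 0.65, 0.16, 0.01 and 0.03, beside 0.02, 0.04, −0.01, 0.00 and 0.00 over all genes. Mphosph6, a cofactor of the nuclear exosome, was higher in ski7-/- in each of the 5 comparisons (0.92 ± 0.14, 1.21 ± 0.22, 0.83 ± 0.08, 0.78 ± 0.12 and 0.45 ± 0.07). Exosc10, a nuclear exosome nuclease, was higher in oocytes by 1.35 ± 0.41 in polyA and 1.26 ± 0.40 in rRNA-depleted libraries, and in polyA embryos by 0.53 ± 0.17. Dis3, another nuclease of the complex, was 1.40 ± 0.24 higher in polyA oocytes and not called in rRNA-depleted ones (−0.07 ± 0.14). Dis3l, the cytosolic nuclease, was not among the genes called on any of these means. Which of the 10 was left untested in a period is not given, so for dis3l this need not be the outcome of a test.

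For the opposite route of decay, from the 5′ end, all 10 genes were tested. In polyA libraries 0 rose and 2 fell in ski7-/- oocytes, 5 rose and 2 fell in eggs, and 2 rose and 3 fell in embryos, and in rRNA-depleted libraries 0 rose and 4 fell in oocytes and 1 rose and 3 fell in embryos. On these means 38.3%, 52.3%, 53%, 44.9% and 47.3% of all genes were called in the same order, and the counts of the list were near or under those shares except in eggs. Its medians were log2 0.05, 0.31, −0.17, −0.05 and −0.08. The decapping enzyme dcp2 was lower in all 5 (−0.33 and −0.23 in oocytes, −0.84 in eggs, −0.75 and −0.81 in embryos, polyA first), and the exonuclease xrn1 was lower in rRNA-depleted oocytes (−0.12 ± 0.04), eggs (−0.29 ± 0.08) and embryos (−0.24 ± 0.03 and −0.21 ± 0.03).

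Of 15 deadenylation genes, 11 or 12 were tested per comparison. In polyA, 3 rose and 0 fell in oocytes, 3 rose and 3 fell in eggs and 4 rose and 2 fell in embryos, and in rRNA-depleted libraries 3 rose and 3 fell in oocytes and 2 rose and 3 fell in embryos. These counts were near the shares called over all genes (38.3%, 52.3%, 53%, 44.9% and 47.3%), and the list medians were log2 0.07, −0.02, 0.06, 0.00 and 0.02. The scaffold of the deadenylase, cnot1, was 13.4-fold lower in ski7-/- eggs (−3.74 ± 0.32, adjusted p = 5.4e-07) and was not among the genes called on the other means. Whether cnot1 passed the filter in eggs through both genotypes is not given, and its value is given with this filter alone. Cnot11, another subunit, was higher in eggs (0.83 ± 0.24) and embryos (1.27 ± 0.11 in polyA and 1.04 ± 0.10 in rRNA-depleted libraries). Of the 5 PAF1 complex genes beside wdr61, all tested, 1 rose in polyA oocytes, 2 rose in eggs, 1 rose and 1 fell in polyA embryos, 2 fell in rRNA-depleted oocytes and 1 rose and 2 fell in rRNA-depleted embryos, again near those shares, with list medians of log2 0.05, 0.23, −0.09, −0.05 and −0.06. Leo1 was higher in polyA oocytes (0.36 ± 0.13) and lower in rRNA-depleted ones (−0.15 ± 0.05), and it was higher in eggs (0.56 ± 0.09) and embryos (0.24 ± 0.06 and 0.19 ± 0.07), and cdc73 was higher in eggs (1.15 ± 0.18) and lower in rRNA-depleted embryos (−0.24 ± 0.05).

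Across the 11 WT polyA stage means, skiv2l and wdr61 (Pearson r = 0.93), exosc9 and skiv2l (0.92) and exosc1 and skiv2l (0.91) followed each other most closely among the 6, and exosc7 and exosc9 least (−0.39). These values, on log2(CPM + 0.5), describe 11 stage means. All 6 genes were measured in the same libraries and across the same oocyte-to-egg step. Over the 8 stage means of rRNA-depleted libraries every pair was positive, and r was 0.81 for exosc7 and exosc9. The lowest value there was 0.67 (exosc2 and exosc9), and the highest was 0.97 (exosc7 with exosc2 and with wdr61). Courses like that of exosc9 in polyA RNA were common: 1850 of 10667 genes compared had r above 0.9 with it, headed by MGAT2, PWP1 and MED6 (0.998), against 1450 for skiv2l (STIP1 first, 0.994), 1521 for wdr61 (PYURF, 0.994), 488 for exosc2 (svopl, 0.996), 381 for exosc7 (CNPY1, 0.994) and 377 for exosc1 (si:dkey-177p2.6, 0.963).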

How the data were processed

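Total RNA of zebrafish oocytes, eggs and embryos was sequenced from stranded libraries. Adapters were removed by the authors, who mapped to GRCz11 using HISAT2 2.1.0 and took unique reads per Ensembl gene from HTSeq 0.9.1. The deposited values are these raw counts, and 5 summary lines per file (reads outside genes, ambiguous and the like) were left out of library sizes. Reads outside genes were 10.35% to 18.24% of polyA and 12.21% to 29.43% of rRNA-depleted libraries.

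Groups were taken from the labels. The 6 genes and the lists of related genes were chosen with earlier results of these data known, and the lists are described by counts and medians only. Gene names were matched by Ensembl identifier for 28965 of 31466 genes (92.1%). No coordinates or sequences are given, since the available annotation is of another assembly. Levels are TMM-normalized counts per 1e6 reads (edgeR 4.0.16). A gene was tested where 3 or more libraries reached 10 CPM, with edgeR's quasi-likelihood test in R 4.3.3, in 1 model per developmental period for ski7-/- against WT, 1 per library type for stages and 1 over both types for their difference, with interaction terms. P-values were adjusted over all genes tested by Benjamini-Hochberg, and 0.05 was the threshold. An SE is that of the fitted log2 difference. The genes shown as most alike were the 3 with the highest Pearson correlation to each of the 6.

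Alternatives were DESeq2 size factors, library size alone, DESeq2 1.42.0, a 1 CPM filter, no filter, a fit per stage, a replicate block, a random block in limma-voom (limma 3.58.1), and each replicate left out. A replicate of 1 genotype was left out at all stages of a fit, and from both library types where these were compared. Replicate numbers were shared by stages of a genotype (mean correlation of deviations 0.575 to 0.754 over the 5 fits) and not by the genotypes (−0.0257 to 0.0489). The floor of 3 reads was 0.0206 to 1.03 CPM in polyA and 0.0644 to 2.08 CPM in rRNA-depleted libraries. The tests were run on simulated counts, drawn independently for each library with 1 spread for all genes, for 1 contrast per fit. These counts hold no correlation between stages of a replicate number, so they cannot check the tests in that respect.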

Additional observations from a re-analysis of the deposited data

Results flagged for a closer look

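In 5 cases an effect differed between 2 groups by a test of the difference itself (edgeR quasi-likelihood, adjusted over all genes). The step from O4 to UNA in polyA libraries differed between ski7-/- and WT for skiv2l, the SKI complex helicase, by −1.415 (log2, SE 0.36, adjusted p = 0.0071). All 3 mutant egg libraries at UNA, at 3.49 to 5.95 CPM, were below all WT ones, while the O4 libraries overlapped.

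The step from O4 to E1 in rRNA-depleted libraries differed between the genotypes for exosc2 (0.489, SE 0.14, adjusted p = 0.025), exosc7 (0.775, SE 0.21, adjusted p = 0.020) and skiv2l (0.559, SE 0.14, adjusted p = 0.010). Exosc7 fell in both genotypes, and less in ski7-/-.

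The difference between polyA and rRNA-depleted libraries at E1 depended on genotype for skiv2l (−0.711, SE 0.19, adjusted p = 0.025). Each of these 5 was lost without at least 1 replicate, as given with the results.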

How the results depend on the processing

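None of the results compared changed sign under any alternative. Of the called differences, 9 of 24 between genotypes at single stages, 9 of 16 between genotypes over a period, 25 of 42 between stages and 28 of 35 between library types were called under every alternative in which they were tested. The replicate block for genotype, whose numbers do not pair WT with ski7-/-, ended none of the 24 single-stage calls, and the block on replicate sets ended none of the 42 stage and 35 library-type calls. The causes of the changes below were not tested, beyond the smaller number of libraries in a fit per stage.

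Calls at single stages among the 6 genes went from 0 to 1 in polyA oocytes with DESeq2 and with a fit per stage (0 to 1 with a replicate left out). In eggs the 1 call became 2 with DESeq2 size factors, 0 with library size alone, 3 with DESeq2, 2 with a 1 CPM filter, 0 with a fit per stage and 3 with the replicate block (0 to 3 with a replicate left out). In the fit per stage skiv2l was under the filter in FER and was not tested, so its call was not put to that alternative. The same holds for skiv2l in eggs without WT replicate 2. In rRNA-depleted libraries a fit per stage left 1 of 4 in oocytes and 5 of 9 in embryos. Leaving out a replicate gave 6 to 12 calls in polyA embryos against 10, 2 to 3 in rRNA-depleted oocytes against 4 and 5 to 8 in rRNA-depleted embryos against 9.

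Over period means, the random block, which estimates the correlation, gave 0 in place of 1 in polyA oocytes, 1 in place of 2 in rRNA-depleted oocytes, 4 in place of 6 in polyA embryos and 3 in place of 6 in rRNA-depleted embryos. Library size alone gave 2 in place of 1 in eggs. With a replicate left out the counts were 0 to 2 in polyA oocytes, 1 to 2 in eggs, 5 in polyA embryos, 1 to 2 in rRNA-depleted oocytes and 3 to 5 in rRNA-depleted embryos. The egg count without WT replicate 2 does not include skiv2l, which was under the filter there. For O4 to E1 in rRNA-depleted WT libraries, 3 calls became 1 with library size alone (2 to 3 with a replicate left out). The interaction over that step gave 0 to 2 in place of 3 with a replicate left out, and that of O4 to UNA gave 0 in place of 1 with library size alone (0 to 1 with a replicate left out). Exosc1 at 11 reads in a library is the value that depth limits most.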
